A study of Vigna radiata with 18 samples.

Results

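Chromosome 1 of mung bean (Vigna radiata) carried 3300 of the 50238 consensus peaks of open chromatin called by ATAC-seq in leaves, 6.57% of the peaks on 8.38% of the length. Every peak listed on that chromosome was taken, whatever its width or place, and none overlapped or touched another. ATAC-seq uses the transposase Tn5 to cut and tag accessible DNA in nuclei, so that a peak marks a short stretch that the enzyme reached often. The plants were wild type, of the cultivar Weilv 9, grown hydroponically and sampled as leaf. The labels name protoplasts as the cell type, whereas their protocol describes nuclei from frozen leaf tissue.

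The libraries numbered 18, with 3 replicates in each of 6 groups. In the 3 pre-conditioned groups (T1), seedlings stood in 100 mM NaCl for 24 h, recovered without salt for 48 h and met 100 mM NaCl again. In the 3 groups under direct stress (T2), 100 mM NaCl was given without the earlier exposure. Leaves of both regimes were taken 0, 6 and 48 h into the final salt treatment. The list analysed gives a chromosome, a start and an end for each peak and no value for any of these libraries. It therefore shows where chromatin was called open in the series as a whole, and a change with salt, priming or time on chromosome 1 was not analysed here. Read depth is unknown as well, and every interval below covers counting error alone.

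In plants, open chromatin lies mostly at promoters, enhancers and other regulatory DNA of active genes, and its density along a chromosome tends to follow that of genes. Legume chromosomes commonly have a gene-poor, repeat-rich region of compact chromatin around the centromere, and gene-rich DNA towards the ends. Long repeat arrays also keep short reads from being placed uniquely, so a stretch without peaks can be closed, repetitive or missing from the assembly. Which of these held for the stretches described here was not tested, since no genome sequence was used. The genome build of the list is not given in the sources used here. The gene table at hand is of another assembly, with its last gene of chromosome 1 ending at 36490158 and the last peak at 41820291. Coordinates were for that reason joined to no gene, and no exon, intron, promoter or sequence is named.

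Chromosome 1 was divided at its longest stretch without a peak, which ran from 18139876 to 20661530 and took up 6.03% of the length. The same share was 0.716% to 4.78% on the other 10 chromosomes. The side with the lower coordinates (the first side) covered 18.1 Mb with 1120 peaks, and the second side 21.2 Mb with 2180 peaks. The sides are named by position in the list. Which of them is the short or the long arm, and whether the span holds the centromere, is not given in the sources used here.

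**Figure D1:**
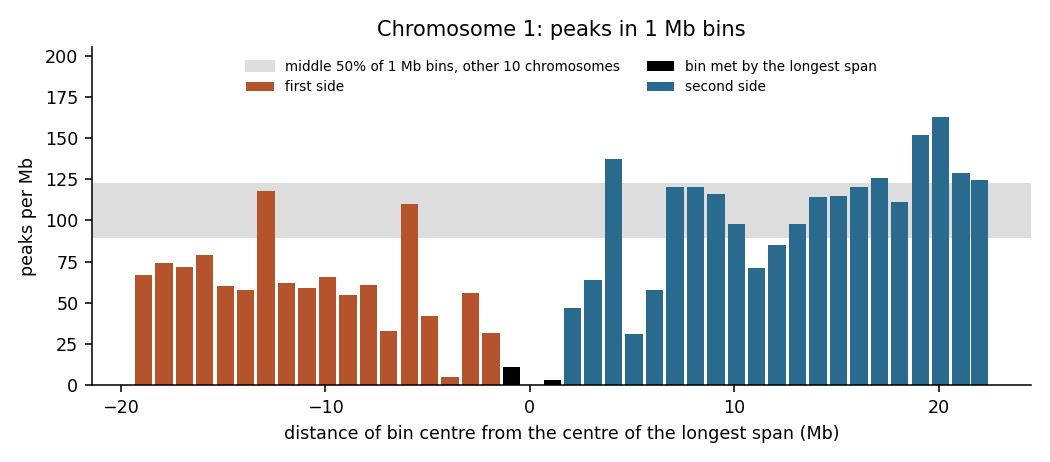
Peaks per Mb in bins of 1 Mb along chromosome 1 (vertical axis), by the distance of each bin's centre from the centre of the longest peak-free span (horizontal axis, Mb). The grey band is the middle 50% of bins on the other 10 chromosomes, 90 to 122 peaks, and 16 of the 18 bins of the first side lie below it.

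Taken as wholes, the sides differed in density and hardly in median peak width. The first side held 61.7 peaks per Mb and the second 103 per Mb, a ratio of 1.67 (95% exact binomial interval 1.55 to 1.79). The other 10 chromosomes had 107 ± 13.4 peaks per Mb on their first side and 92.2 ± 26.9 on their second (SD, n = 10 chromosomes). The first side of chromosome 1 was thus below the first side of every other chromosome, the next being chromosome 5 with 79.8 per Mb. Its second side was above that of 6 and below that of 4 of the other chromosomes. Of all 22 sides in the genome, 1 was sparser than the first side of chromosome 1, the second side of chromosome 11, a short stretch of 1.95 Mb with 48 peaks.

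The 11 chromosomes come from one list, so none is a biological replicate of another. An exact two-sided permutation test that sets chromosome 1 against the other 10 cannot give a p below 0.0909, so no such difference can pass 0.05. For the ratio of second to first side it gave an exact p of 0.182 (adjusted p = 0.318 over the 7 planned tests). The ratio ran from 0.210 on chromosome 11 to 1.16 on chromosome 10 elsewhere. The numbering of a chromosome from one end or the other is arbitrary, and without regard to direction the sides of chromosome 11 differed more (exact permutation p = 0.455). The size of the log2 ratio was 0.74 on chromosome 1 and 2.25 on chromosome 11, and at most 0.39 on the remaining 9 chromosomes.

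**Figure D2:**
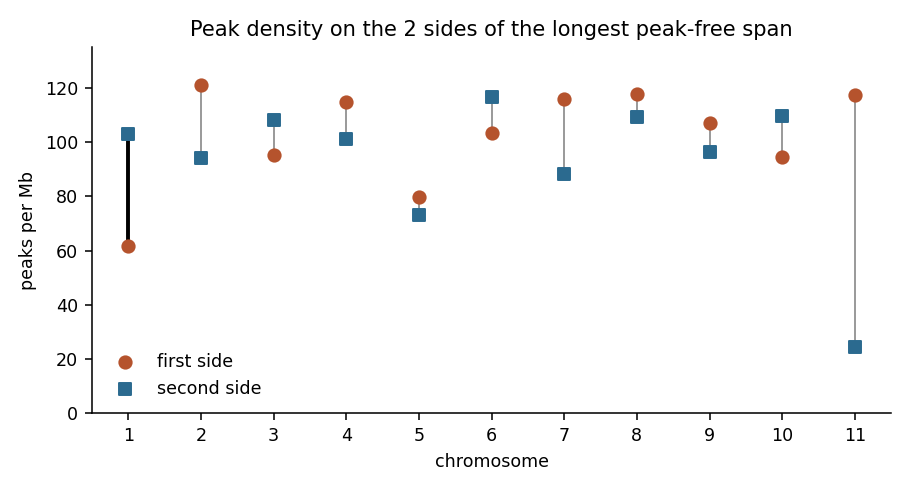
Peaks per Mb (vertical axis) on the first side (circles) and second side (squares) of the longest peak-free span of each of the 11 chromosomes (horizontal axis), joined by a line. On chromosome 1 the circle stands at 61.7, below all other circles, and the square at 103, among the other squares.

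In bins of 1 Mb, the first side had a median of 60.5 peaks, a lowest count of 5 and a highest of 118 (18 bins). The second side had a median of 114.5, from 31 to 163 (20 full bins). Bins of the other 10 chromosomes had a median of 107 (453 bins). The ranges of the sides overlapped. The first side had 2 bins above 100 peaks, one of them its densest at 6000001 to 7000000. All other 16 bins of the first side lay below the lower quartile of the other chromosomes, which was 90. Of the bins of the second side 12 of 20 reached 100 peaks, and the densest, at 39000001 to 40000000, held 163. Chromosome 1 opened with 6 bins in a row under 80 peaks, a limit chosen after the counts were seen, whereas no other chromosome opened with more than 1. The longest run of such bins on any chromosome was 11, on chromosome 5. On chromosome 1 the longest was 9, from 14000001 to 23000000, which crossed the longest span into the second side. In all, 24 of the 41 full bins of chromosome 1 were under 80, or 58.5%, against 6.67% to 43.2% on the other chromosomes.

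Over their whole length, both sides had peaks of nearly the same width. The median was 285.5 bp on the first side (95% exact interval 270 to 298) and 290 bp on the second (279 to 297), with quartiles of 200 and 426 bp and of 197 and 442 bp. The difference of 4.5 bp had an approximate 95% interval of -12.1 to 21.1 bp (exact permutation p over chromosomes = 0.545, adjusted p = 0.545). Peaks of 1000 bp or more made up 2.14% of the first side (24 peaks, interval 1.38 to 3.17) and 1.88% of the second (41 peaks, 1.35 to 2.54). The other chromosomes had 2.34% such peaks and a median width of 292 bp. The bases under peaks therefore differed as the numbers did, with 2.14% of the first side, 3.64% of the second side and 3.69% of the other chromosomes covered.

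The widest peaks of the whole chromosome nevertheless stood on its sparse side. A peak of 3246 bp at 5379468 to 5382713 and one of 2129 bp at 5377174 to 5379302 were neighbours, 165 bp apart. They ranked 7 and 26 among all peaks of the list, and no other peak of chromosome 1 exceeded 2000 bp. The next on the first side measured 1504 bp, at 9416889 to 9418392. The widest of the second side were 1850 bp (30755272 to 30757121), 1767 bp (40871778 to 40873544) and 1742 bp (30747947 to 30749688), the first and the last of them within 10 kb of each other.

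The gaps between neighbouring peaks showed where the sides parted. Short gaps were alike: at the 10th percentile both sides had gaps of 0.683 kb, and the lower quartile was 2.07 kb on the first side and 1.96 kb on the second. The median gap was 6.69 kb (95% exact interval 6.13 to 7.41) on the first side and 5.66 kb (5.42 to 5.97) on the second. From there the sides drew apart, with upper quartiles of 16.3 and 11.8 kb, 90th percentiles of 33.6 and 20.7 kb and 95th percentiles of 60.0 and 28.1 kb. The ratio of first to second side thus went from 1.00 at the 10th percentile over 1.18 at the median to 2.13 at the 95th. The second side was close to the other chromosomes, whose median gap was 5.75 kb and 90th percentile 20.2 kb. For the ratio of median gaps the exact permutation test over chromosomes gave p = 0.182 (adjusted p = 0.318). That p takes the direction of numbering into account. Chromosomes 2, 4, 9 and 11 had larger folds than the 1.18 of chromosome 1, with the longer median gap on their second side. Their ratios of second to first side were 1.219, 1.201, 1.197 and 2.079.

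**Figure D3:**
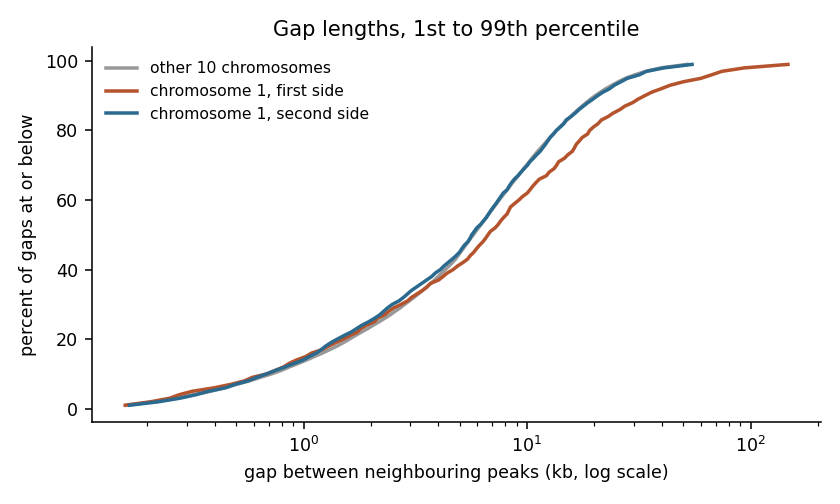
Percent of gaps at or below a given length (vertical axis) against gap length in kb on a log scale (horizontal axis), from the 1st to the 99th percentile, for the sides of chromosome 1 and for the other 10 chromosomes. The curves run together at short gaps (0.683 kb at the 10th percentile on both sides) and the first side departs to the right at longer gaps, reaching 33.6 kb at the 90th percentile against 20.7 kb.

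Close pairs of peaks, with 150 to 700 bp between them, were as frequent on both sides, at 9.47% of gaps on the first (interval 7.82 to 11.3) and 9.50% on the second (8.30 to 10.8). The mean gap was 15.7 kb on the first side and 9.36 kb on the second. Of the 6.39 kb by which the mean gap was longer on the first side, 50.9% lay in gaps of 100 kb or more, 35.6% in gaps of 50 to 100 kb and 17.5% in gaps of 20 to 50 kb. Gaps of 1 to 10 kb took less length per gap there than on the second side, so these shares add to more than the whole. Gaps of 50 to 100 kb numbered 47 on the first side, 2.59 per Mb, and 20 on the second, 0.945 per Mb, against 0.818 per Mb on the other chromosomes.

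Long spans without peaks were more frequent on the first side. Spans of 100 kb or more numbered 21 there, the longest one aside, and took up 4.43 Mb or 24.4% of the side. On the second side there were 8, over 1.53 Mb or 7.23%. The sides of chromosome 5 came near the first side, with 27 spans over 17.8% and 15 over 19.7% of their length. The short second side of chromosome 11 had 64.7%, and the remaining sides of other chromosomes had 0.656% to 13.8%. Between such spans the first side of chromosome 1 fell into 22 runs of peaks with a median of 25 peaks, the largest holding 212 peaks over 2905 kb. The second side had 9 runs with a median of 33 peaks. Its largest, from 30594690 to 41820291, held 1347 peaks or 61.8% of the side, against 18.9% in the largest of the first side. With the long spans, and the stretch before the first peak, taken out of the length, the first side still had 82.5 peaks per Mb and the second 111, a ratio of 1.35. The other first sides had 112 ± 8.71 per Mb by that measure (SD, n = 10), from 98.6 upwards.

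Of the 5 longest spans of the chromosome, the longest measured 2522 kb and 3 of the next 4 lay on the first side. The second in length was one of 969 kb at 15190115 to 16159404, the fifth longest gap of the whole list. A span of 445 kb followed at 14653257 to 15097846, separated from it by 5 peaks between 15097847 and 15190114. Those 5 peaks, of 109 to 607 bp, were all that the sparsest 1 Mb of the first side held (15000001 to 16000000). The fourth span, of 347 kb, lay on the second side at 24765554 to 25112570, and the fifth, of 313 kb, on the first at 10629656 to 10942881. From the start of the 969 kb span to the end of the longest, 5.47 Mb held 99 peaks, 18.1 per Mb. In windows of that length moved in steps of 10 kb, the emptiest on another chromosome held 176 peaks (chromosome 5) and the others at least 216. This stretch was chosen for its spans, so its low count is a description.

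Peaks stood closer together at the first edge of the longest span than at the second. The last peak before it, at 18139520 to 18139875 (356 bp), had neighbours 6.39 kb and 10.2 kb from the edge, at 18133184 to 18133489 (306 bp) and 18128868 to 18129641 (774 bp). The first peak after it, at 20661531 to 20662133 (603 bp), was followed by one at 20709159 to 20709289 (131 bp), 47.6 kb on, and another at 20949045 to 20949679 (635 bp), 288 kb on. Within 500 kb there were 19 peaks at the first edge and 6 at the second, against a median of 22 and a range of 5 to 76 at the edges of 19 sides of the other chromosomes (the short side of chromosome 11 left out). Within 1 Mb the edges were equal, with 37 peaks each and a median of 60 elsewhere.

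**Figure D4:**
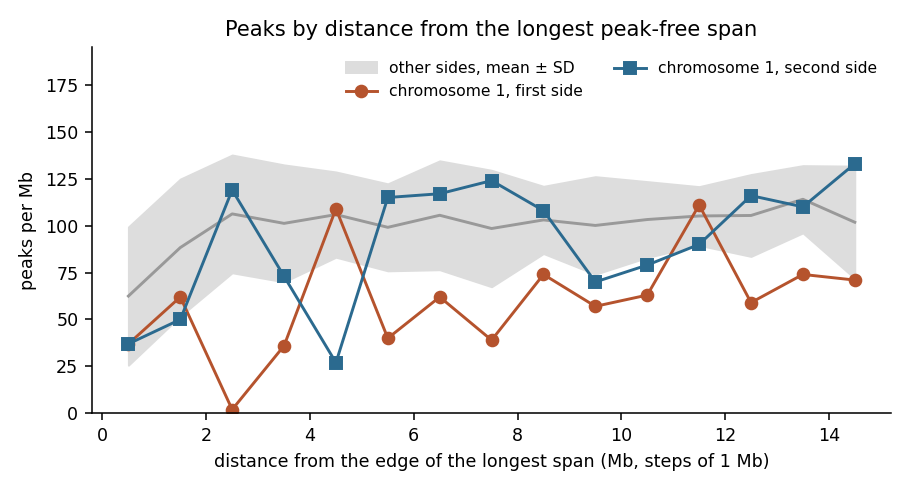
Peaks per Mb (vertical axis) in steps of 1 Mb away from each edge of the longest span (horizontal axis, Mb), for the first side (circles) and second side (squares) of chromosome 1 and for the sides of the other chromosomes (mean with SD band). Both sides of chromosome 1 begin at 37, and beyond 5 Mb the second side stays between 70 and 133 while the first is at 39 to 111.

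Farther out the sides took different courses. The sparse part of the second side was taken to end at 25356636, where its last long span within 5 Mb of the edge began. Up to there, 4.70 Mb held 294 peaks (62.6 per Mb) and 6 of the 8 long spans. Beyond, from 25488896 to 41820291, 1886 peaks stood at 115 per Mb with 1 further span of 100 kb or more. The sparse part was itself uneven, with 176 peaks at 121 per Mb between 22505154 and 23957943, and 31 peaks in the emptiest 1 Mb of the side (24000001 to 25000000). On the first side the 5 Mb next to the span had 49.2 peaks per Mb and the rest of the side 66.5, a ratio of 0.740 (95% exact interval 0.639 to 0.853). The same values of the second side were 61.2 and 116 per Mb, a ratio of 0.528 (0.466 to 0.596). On the other chromosomes the ratio averaged 0.856 ± 0.130 on first sides (SD, n = 10) and 0.884 ± 0.25 on second sides (SD, n = 9). Among first sides, 2 had a lower ratio than chromosome 1, those of chromosomes 5 (0.6108) and 6 (0.7146), and 8 a higher one. Among second sides, 1 had a lower ratio and 8 a higher one. The lower was that of chromosome 5, with 44 peaks per Mb near its span and 87.95 beyond. The exact permutation p over chromosomes was 0.455 for the first side (adjusted p = 0.530) and 0.3 for the second (adjusted p = 0.42, smallest possible p 0.1). Away from the span, the first side was below all 10 other first sides (85.5 per Mb or more) and the second below 1 of 9 other second sides, that of chromosome 6 with 124.

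Of the long spans of the second side, 7 of 8 began within 5 Mb of the longest. Of those of the first side 9 of 21 did so, and the farthest lay 15.9 Mb away. On the other chromosomes 75 of 137 were that near, or 54.7%. The exact 95% intervals of these shares, 47.3 to 99.7% for the second side and 21.8 to 66.0% for the first, overlap each other and that of the other chromosomes (46.0 to 63.3%). Peaks within 5 Mb of the span had a lower median width than those beyond on both sides, though with overlapping intervals. On the first side of chromosome 1 the median width was 268 bp within 5 Mb (interval 242 to 294) and 290.5 bp beyond (273 to 303). The second side had 271 bp (249 to 289) near the span and 293 bp (284 to 303) beyond. Width did not fall steadily towards the span. In equal parts from the end to the span, medians were 320, 269 and 273.5 bp on the second side. On the first side they were 286, 293 and 273 bp. Elsewhere the innermost part was also narrower than the outermost, except on the second sides of chromosomes 9 (284 against 280 bp) and 11 (163.5 against 151 bp). Peaks of 1000 bp or more were 2 of 306 within 5 Mb (0.654%) and 39 of 1874 beyond (2.08%) on the second side of chromosome 1. The first side had like shares in both parts, with 5 of 246 (2.03%) and 19 of 874 (2.17%).

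The ends of chromosome 1 were unequal from the outermost step inwards. Over the first 20% of the length 74.0 peaks were found per Mb, and over the last 20% there were 129, a ratio of 1.75 (95% exact binomial interval 1.58 to 1.93). Elsewhere this ratio averaged 0.883 ± 0.25 (SD, n = 10) and reached 1.28 on chromosome 10. For this measure chromosome 1 departed most from the rest, with an exact permutation p of 0.0909, the smallest the test allows (adjusted p = 0.318). The unequal ends were known from earlier results of these data when the test was planned, so this p is a description only. Without regard to direction chromosome 11 was slightly more unequal with ends of 20% (exact permutation p = 0.273). Shorter ends placed further chromosomes level with chromosome 1 or past it. Chromosome 5 had 40 peaks in its first 1 Mb and 130 in its last, and chromosome 11 had 121 and 40. Chromosome 1 had 67 and 139 there. Ends of 5 Mb held 142 and 61 peaks per Mb in chromosome 11. In chromosome 9 they held 122.8 and 63, close to the inequality of chromosome 1 (70.4 and 136.4).

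Both ends contributed. The outermost 1 Mb held 67 peaks at the start and 139 at the end, against 105 ± 27.9 (SD) and a range of 40 to 132 over 20 ends of the other chromosomes. The outermost 8 Mb had 73.8 per Mb at the start, less than any of the 20 other ends (75 or more), and 130 per Mb at the end, exceeded by 6 of them. With ends of 1, 2 or 5 Mb, 2 other ends were sparser than the start. Over 5 Mb it had 70.4 per Mb, against a lowest of 61 elsewhere. Peak widths differed at the ends as well, which was not tested. Over the outermost 5 Mb the median width was 286.5 bp at the start and 327 bp at the far end. The 20 other ends averaged 298.7 ± 17.2 bp (SD), and the first end of chromosome 7 also had 327 bp. The outermost 1 Mb had medians of 285 and 345 bp, against 297.7 ± 33.0 bp (SD) and 349.5 bp at the first end of chromosome 10. In steps of 1 Mb, the last end held more peaks than the first in 16 of 17 steps at equal distance, the exception being the innermost. The margin was small in places, with 119 against 118 peaks at 6 to 7 Mb and 65 against 61 at 11 to 12 Mb. The start stayed level, at 67, 74, 72, 79, 60 and 58 peaks in its first 6 steps, while the far end held 121 to 161 over the same distance. Divided into 3 equal parts from the end to the span, the first side had 69.3, 68.6 and 47.3 peaks per Mb, whereas the second had 131, 101 and 76.8. The outermost parts of 19 other sides averaged 113 ± 19.5 per Mb (SD) and the innermost 94.6 ± 20.8. The first peak of chromosome 1 began at 131352, later than on 9 of the other chromosomes. Chromosome lengths were not used here, and the far end was taken as the end of the last peak.

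**Figure D5:**
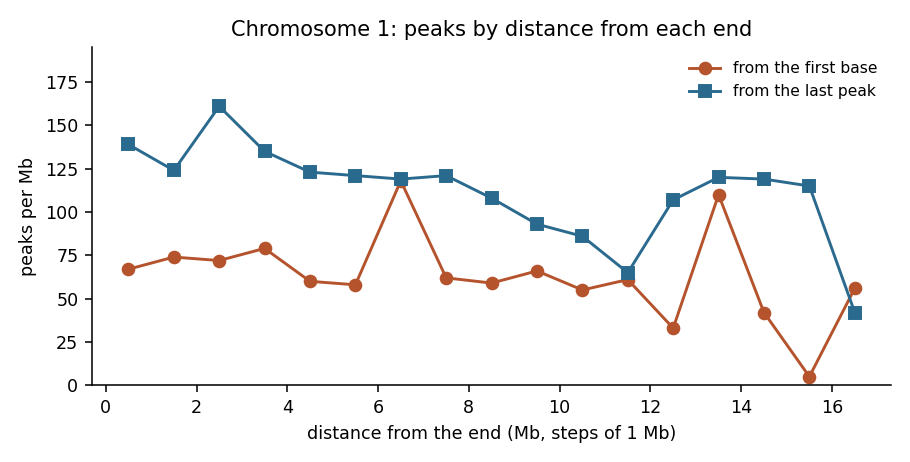
Peaks per Mb on chromosome 1 (vertical axis) in steps of 1 Mb inwards (horizontal axis, Mb), from the first base (circles) and from the end of the last peak (squares). The squares lie above the circles in 16 of 17 steps, and the outermost values are 139 and 67.

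The peaks of chromosome 1 leaned to its far end. Their median position was at 66.0% of the length, whereas it lay between 41.2% and 56.1% on the other chromosomes. The part past the midpoint of the length held 1.94 times as many peaks as the part before it, against 0.764 to 1.30 times elsewhere. Both values lay farther from the rest than those of any other of the 11 chromosomes. Each had an exact permutation p of 0.0909, which cannot be lower here, and neither was a planned test. They measure the same imbalance as the unequal ends, which were known beforehand. Their p is therefore a description and adds no separate evidence.

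Chromosome 5, the other sparse chromosome, was the nearest in density, with 76.8 peaks per Mb against 78.9 on chromosome 1 as a whole. The length in spans of 100 kb or more was close as well, at 8.66 Mb in 43 spans on chromosome 5 and 8.48 Mb in 30 spans on chromosome 1. Its division was not alike. The longest span made up 29.7% of that length on chromosome 1 and 5.55% on chromosome 5, and the longest pair 41.2% and 10.2%. The sides of chromosome 5 had 79.8 and 73.3 peaks per Mb, so both were sparse, and their upper quartile gaps of 13.3 and 14.3 kb lay between those of the sides of chromosome 1. Taken over the whole length, chromosome 1 was at 0.768 of the pooled density of the other 10 (95% exact binomial interval 0.741 to 0.796), with chromosome 5 alone lower (exact permutation p = 0.182, adjusted p = 0.318).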

How the data were processed

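A single deposited list of consensus intervals from 18 ATAC-seq libraries was used. It holds 3 columns (chromosome, start, end) and 0 columns of a library, so its values are positions in bp and carry no counts. Per the submitters' processing notes, fastp 1.0.1, SAMtools 1.22.1, MACS3 3.0.3 and bedtools 2.28.0 were among the tools. What each did, the threshold for a peak, the joining of libraries and the assembly used remain unstated in the labels and the list. A stricter threshold would lengthen gaps, and discarding multiply mapped reads would empty repeats. Starts were converted to count from 1. Peaks were assigned to bins by their centre, and a chromosome was measured from base 1 up to where its last peak ended. Calculations used SciPy 1.17.1, pandas 2.3.3 and numpy 2.4.6 under Python 3.11.15 and were tested on simulated data. Intervals are exact (Clopper-Pearson for shares and ratios of counts, order statistics for medians). The interval of the difference in median width combines those of both medians and is approximate. All intervals treat peaks as independent and cover counting error only. Of the planned tests, 7 set chromosome 1 against the other 10 and were adjusted by Benjamini-Hochberg. Named regions were the 5 longest spans, the 3 peaks nearest the span and the 3 widest peaks of each side, and the densest and sparsest 1 Mb of each side. The other stretches named were chosen after their values were seen. The members, measures and lists were chosen with earlier results of these data known. The gene table at hand ends before the last peak on all 11 chromosomes and was therefore not joined.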

Additional observations from a re-analysis of the deposited data

How the results depend on the processing

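Of 37 alternative values, 26 stayed inside the counting interval of the reported value, or within 1.5 times a count or gap, 11 moved and 0 changed direction. The counts and gaps held to the limit of 1.5 times were judged by size alone. The 0 therefore covers only the values that have a counting interval. All values from merging peaks closer than 150 bp (3274 of 3300 left) and from leaving out the narrowest 25% of peaks (2438 left) were among the 26. With the length in spans of 100 kb or more left out, the density ratio of the sides was 1.35 and chromosome 1 stood at 0.891 of the others. Division at the midpoint, chosen after seeing the data, gave 1.94 for the sides. Ends of 10% of the chromosome's length and of 5 Mb both gave 1.94. On the second side, density near the span was 0.398 of the rest for 2 Mb and 0.614 with the span widened over up to 3 peaks. By construction, a limit of 50 kb gave 68 long spans on the first side and 28 on the second, and 200 kb gave 5 and 2. No paired analysis was possible because no value is given per library, and no replicate could be left out for the same reason. Depth is unknown, and low coverage in a span cannot be told apart from closed chromatin.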
